A study of Mus musculus with 2 samples.

Results

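The caudal ganglionic eminence (CGE) is a proliferative zone of the ventral forebrain that supplies the cortex with inhibitory interneurons, and 9 genes that regulate or mark its progeny are described here in the embryonic mouse cortex. They are *Nr2f1*, *Nr2f2*, *Prox1*, *Sp8*, *Sp9*, *Adarb2*, *Npas1*, *Npas3* and *Htr3a*, taken by symbol out of 32285 genes listed, with earlier results of these data known. The data are single-cell RNA sequencing of the cerebral cortex of embryos aged E16.5 (embryonic day), control animals of an *Eomes-Cre* mouse line whose genotype is given as wild type (WT), in 2 untreated libraries of 1 group. The study's methods describe its single-cell embryos as C57BL/6J, and whether these samples carried Cre is not given in the sources used here. The study counts several embryos for its single-cell data of this age, but how many gave each library is not stated. With the library as a block, the p-values measure only how much differences between classes vary between these libraries. That spread may be technical. Every comparison sets cell classes from those 2 libraries side by side.

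Interneurons leave the ganglionic eminences and migrate tangentially into the cortex, those of the medial ganglionic eminence (MGE) under *Nkx2-1* and *Lhx6* and those of the CGE under other factors. *Nr2f1* and *Nr2f2* encode the nuclear receptors COUP-TFI and COUP-TFII, *Prox1* a homeodomain protein needed for CGE interneurons to mature, and *Sp8* and *Sp9* zinc-finger factors of ventral progenitors and their young neurons. *Npas1* and *Npas3* encode basic helix-loop-helix PAS factors, *Adarb2* an RNA-binding protein of the adenosine deaminase family without known editing activity, and *Htr3a* a subunit of the serotonin-gated ion channel that most adult CGE interneurons carry. Several of these genes are also known outside the lineage, since COUP-TF factors pattern the cortex and mesenchyme and *Npas3* is a gene of radial glia.

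The promoters were examined first, because the genes share a lineage and the *Dlx* homeodomain factors of GABAergic cells bind sites with the core TAATTA. RefSeq windows on GRCm38.p6, from 250 bases before to 50 after each start, matched 8 of the 9 genes with 12 windows. The core TAATTA, which reads the same on both strands, was in 2 of the 12 windows, and 5.29% of all 32851 windows in the table hold it. The windows with the core are shown, one for *Adarb2* on the plus strand at chr13:8202616-8202915 and one of the 3 for *Sp8* on the plus strand at chr12:118847309-118847608, with the core in capitals. Its first base lay at position -51 from the start in *Adarb2* and at position -188 in *Sp8*. Of the other letters searched on both strands, the nuclear receptor motif AGGTCA was in 1 window, against 16.3% of all windows, and the GC box GGGCGG in 7 windows of 6 genes, against 35.7%. These are matches of letters and not known binding sites.

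Adarb2: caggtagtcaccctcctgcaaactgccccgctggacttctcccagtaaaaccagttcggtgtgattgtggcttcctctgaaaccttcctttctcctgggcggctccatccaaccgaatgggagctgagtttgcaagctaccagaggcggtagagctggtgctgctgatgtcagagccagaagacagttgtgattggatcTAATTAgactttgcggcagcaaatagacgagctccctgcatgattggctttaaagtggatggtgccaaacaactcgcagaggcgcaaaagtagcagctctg

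Sp8: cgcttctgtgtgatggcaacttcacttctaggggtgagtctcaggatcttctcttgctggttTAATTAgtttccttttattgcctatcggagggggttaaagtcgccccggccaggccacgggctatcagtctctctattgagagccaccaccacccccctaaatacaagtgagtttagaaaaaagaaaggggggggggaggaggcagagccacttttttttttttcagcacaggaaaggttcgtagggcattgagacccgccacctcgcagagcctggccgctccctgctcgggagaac

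After filters and doublet removal, 5534 cells of replicate 1 and 9136 of replicate 2 remained, with medians of 5493 and 4728 UMIs (unique molecular identifiers, each marking 1 captured molecule). The libraries shared 40 barcodes, and 15 barcodes were among the kept cells of both. The cells formed 26 clusters, which were drawn without the 9 genes and named from markers that are none of them. Gad cells, meaning cells with at least 1 UMI of *Gad1* or *Gad2*, which make GABA, in a cluster of GABAergic cells, numbered 1726 and 2772. They had lower median depth than excitatory neuron-like cells, with 3593 and 3730 UMIs against 6883 and 5566.

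No cluster could be called CGE interneuron-like from its markers, nor hippocampal neuron-like. The adult CGE subtype gene *Vip* was at 0 UMIs in all Gad cells of both libraries. A cluster of 520 cells, which made up 3.51% of replicate 1 and 3.57% of replicate 2, was GABAergic (90.4% of its cells had a *Gad1* or *Gad2* UMI) without taking any name. Its leading genes were *Erbb4*, *Nrxn3*, *Dlx6os1*, *Nr3c2* and *Sox2ot*. It is called the unnamed GABAergic cells below. For hippocampal cells, a pair of excitatory clusters led by genes that include *Tfap2d* had the highest hippocampal marker scores among excitatory clusters, and their 1341 cells are called *Tfap2d* excitatory cells. That choice was made after the values had been seen, so they are described with no test. Their hippocampal scores of 0.433 and 0.496 were below their scores on other lists. Those were 1.035 and 1.179 for migrating excitatory neurons and 0.82 and 0.922 for deep-layer neurons. A further cluster of 418 cells, led by *Reln*, had a *Gad1* or *Gad2* UMI in 68.9% of its cells. It held mixed markers and was left out of the classes and of the Gad cells. On the CGE marker list it scored above the unnamed GABAergic cells, at 1.398 against 0.441, with *Ndnf* of that list among its leading genes.

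All 9 genes were measured, with between 257 UMIs in 187 cells (*Htr3a*) and 34314 UMIs in 2997 cells (*Adarb2*) over both libraries. *Adarb2* and *Npas3* are the longest of the genes, spanning 566237 and 824148 bases on GRCm38.p6, and whether intronic reads were counted is not given in the sources used here. Levels are therefore compared between cells and not between genes. Gad cells held 23.1% of all UMIs of the kept cells. They held more than that share of the UMIs of 7 of the genes, from 47.4% for *Npas3* to 84.0% for *Htr3a*, but 13.4% for *Nr2f1* and 19.9% for *Nr2f2*. The unnamed GABAergic cells held 2.41% of all UMIs, and between 5.43% (*Nr2f1*) and 53.7% (*Htr3a*) of the UMIs of each gene.

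**Figure D1:**
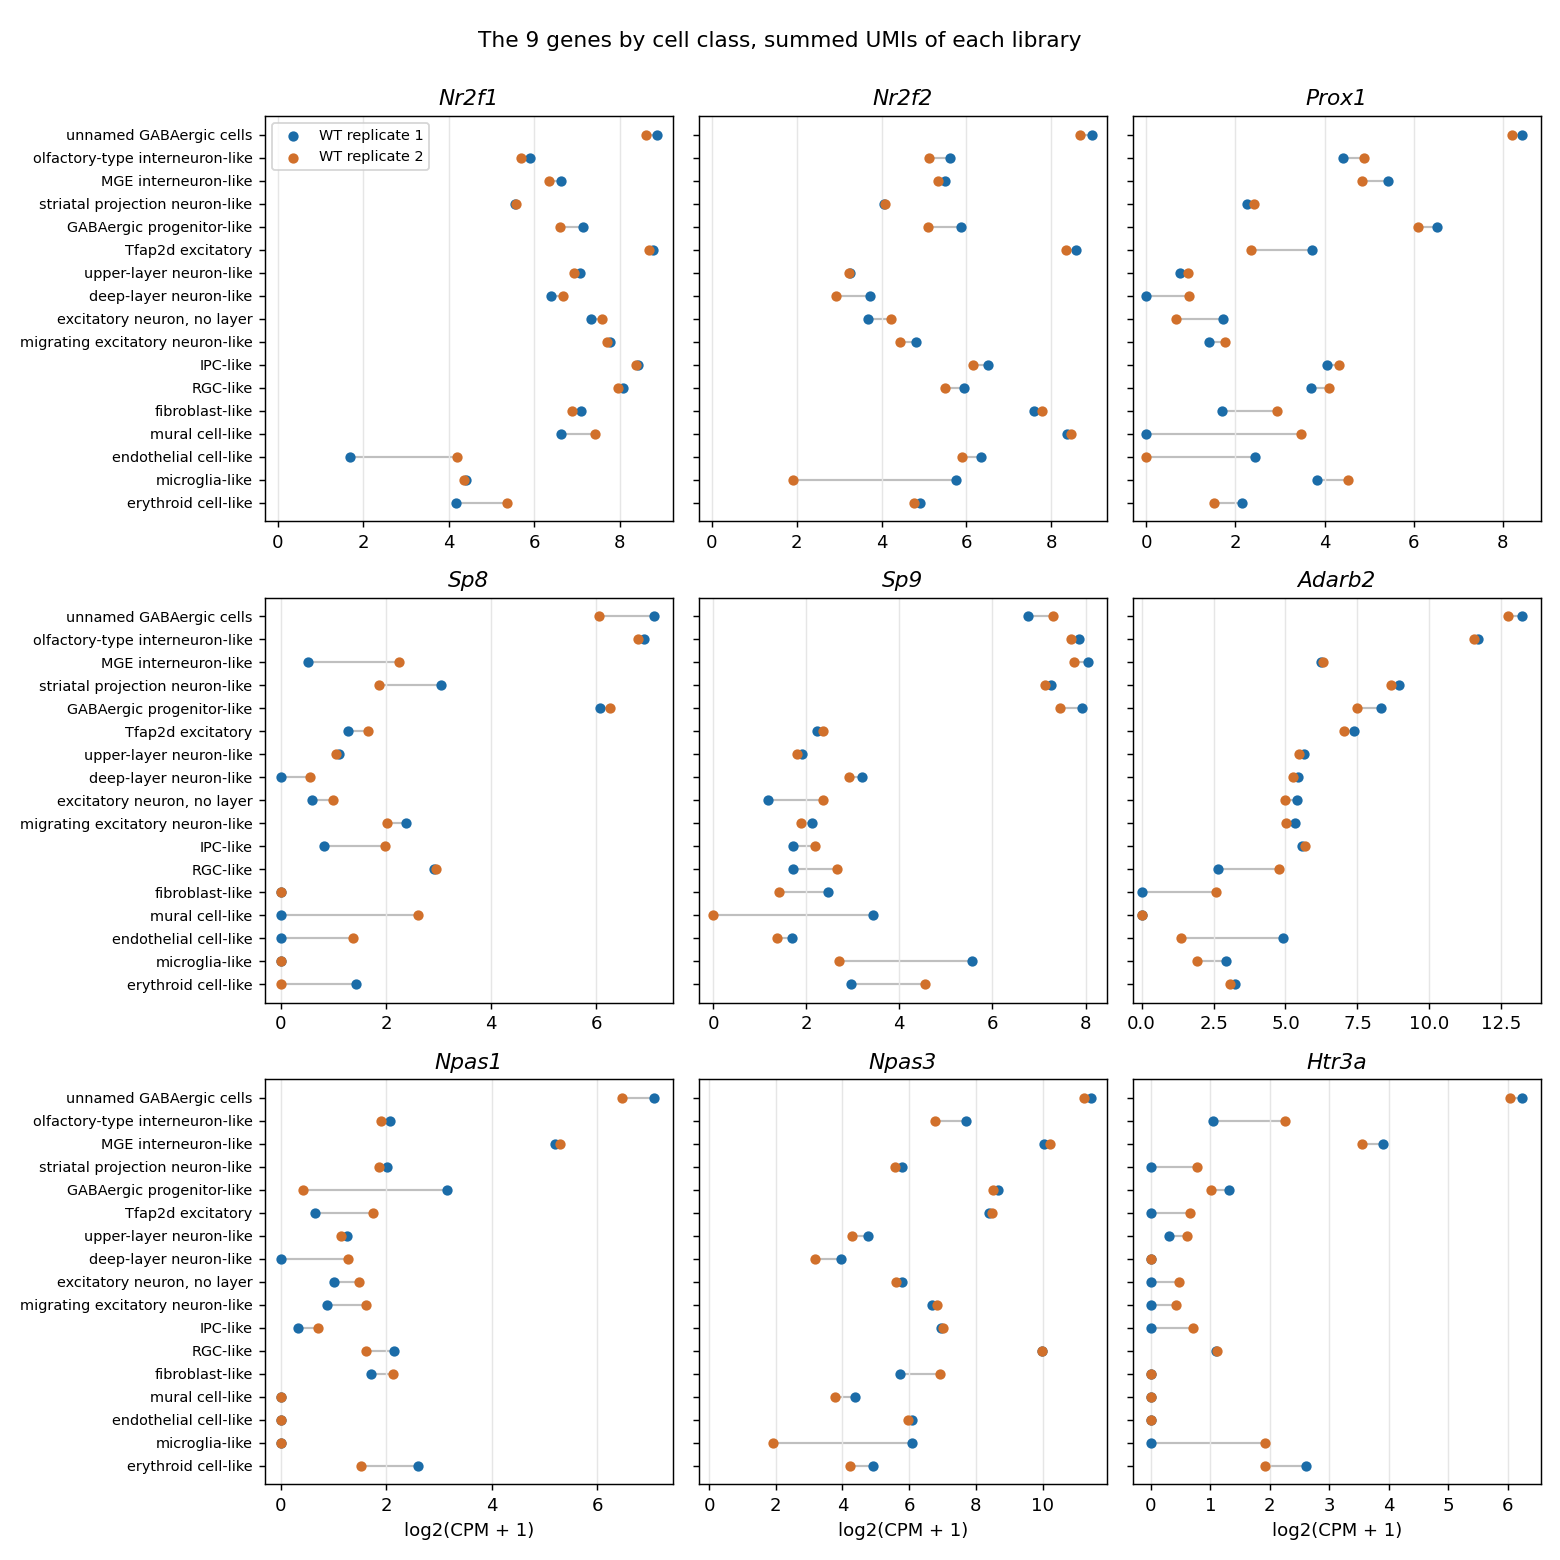
Level of each gene in 17 cell classes, as log2(CPM + 1) of the UMIs summed over the cells of a class in each library (horizontal axis), with a point for each of the 2 WT libraries joined by a line. The unnamed GABAergic cells have the highest mean CPM for 7 of the 9 genes, *Sp8* is level with the olfactory-type class, and *Nr2f1*, *Nr2f2* and *Npas3* are also high in classes that are not GABAergic.

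Among 17 classes that had 20 cells or more per library, the mean CPM (UMIs of a gene scaled by all UMIs of the class, on the usual CPM scale) of 7 genes was highest in the unnamed GABAergic cells, with 8 in replicate 1 and 6 in replicate 2. By the share of cells with a UMI it was 7 genes with each cell thinned to 1500 UMIs, and 5 without thinning. These orders are descriptions.

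*Nr2f1* reached 468 and 390.5 CPM in replicates 1 and 2 in the unnamed GABAergic cells, and 439 and 407 CPM in the *Tfap2d* excitatory cells. These ranges overlapped. Intermediate progenitor cell (IPC)-like cells followed at 340.0 and 334 CPM and radial glial cell (RGC)-like cells at 269 and 246 CPM, each below the class before it in both libraries. *Nr2f2* was at 494 and 406 CPM in the unnamed GABAergic cells and at 379 and 325 CPM in the *Tfap2d* excitatory cells, with no overlap. Mural cell-like cells, which wrap vessels, had 327 and 353 CPM, overlapping the *Tfap2d* range, and fibroblast-like cells 192 and 219 CPM. In neither gene did a GABAergic class other than the unnamed cells stand among the leading 5.

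Other excitatory classes had less, with *Nr2f1* at 216 and 207 CPM in migrating excitatory neuron-like cells and 132 and 121 CPM in upper-layer neuron-like cells, where *Nr2f2* was at 27.1 and 20.5 CPM and at 8.58 and 8.46 CPM. Within the *Tfap2d* excitatory cells both genes were high in 1 of the 2 clusters. In the larger, of 1091 cells and led by *Tafa1* and *Slit3*, *Nr2f1* was at 514 and 487 CPM and *Nr2f2* at 446 and 391 CPM. In the smaller, of 250 cells and led by *Kcnq3*, *Nr2f1* was at 38.5 and 27.0 CPM and *Nr2f2* at 18.3 and 12.4 CPM. *Adarb2* ran the other way, with 130 and 73.8 CPM in the larger cluster and 348 and 392 CPM in the smaller. The 2 clusters did not overlap in any of these genes. Taken alone, the larger cluster lay above the unnamed GABAergic cells in *Nr2f1* with no overlap, so the first place of *Nr2f1* among the 17 classes, and with it the count of 7 genes, turns on pooling these clusters.

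*Prox1* had 36.2% of its UMIs in the unnamed GABAergic cells. It had 342 and 296 CPM in the unnamed GABAergic cells, 91.2 and 67.6 CPM in GABAergic progenitor-like cells, 41.7 and 27.6 CPM in MGE interneuron-like cells and 20.2 and 28.7 CPM in olfactory-type interneuron-like cells. The mean of the unnamed cells was 4.02 times that of the next class. The last 2 classes overlapped. The thinned share of cells with a *Prox1* UMI was 32.3% ± 0.986 (SD, n = 2) in the unnamed GABAergic cells. It was 0.559% and 0.298% in erythroid cell-like cells, which should lack the gene and so show free RNA. Their median depths were 2659 and 2518 UMIs against 3220 and 3536. The 7 erythroid marker genes alone took 588116 and 534883 CPM there and left less room for other RNA. Erythroid values here and below are thus low estimates of free RNA.

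The Sp factors did not follow this order. *Sp8* had 119 and 110 CPM in olfactory-type interneuron-like cells, 136 and 65.6 CPM in the unnamed GABAergic cells and 66.4 and 75.6 CPM in GABAergic progenitor-like cells, and these neighbours overlapped. The next class had 6.50 and 6.75 CPM. *Sp9* had 264 and 216 CPM in MGE interneuron-like, 230.0 and 204 CPM in olfactory-type, 241 and 175 CPM in progenitor-like, 152 and 140 CPM in striatal projection neuron-like and 108 and 157 CPM in the unnamed GABAergic cells. The first 3 classes overlapped in turn, as did the last 2. No other class exceeded 46.5 CPM in a library.

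*Adarb2* had 9426 and 6760 CPM in the unnamed GABAergic cells and 3293 and 3019 CPM in the olfactory-type class, and then fell to 489 and 405 CPM in striatal projection neuron-like cells. None of these overlapped. An *Adarb2* UMI was found in 82.5% ± 4.33 (SD, n = 2) of the unnamed GABAergic cells after thinning and in 1.12% and 0.893% of erythroid cell-like cells.

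The PAS factors were shared with the MGE lineage. *Npas1* had 134 and 87.7 CPM in the unnamed GABAergic cells and 36.0 and 38.3 CPM in MGE interneuron-like cells, with no overlap, and the third class had 7.93 and 0.336 CPM. *Npas3* had 2783 and 2443 CPM, then 1051 and 1205 CPM in MGE interneuron-like and 1008 and 1014 CPM in RGC-like cells. The RGC-like cells were lower than the MGE class in both libraries, by a small margin. Oligodendrocyte lineage cell-like cells, with 21 and 17 cells, were too few for the order above.

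*Htr3a* was rare. It had 74.5 and 64.8 CPM in the unnamed GABAergic cells, from 56 and 82 UMIs, and 13.9 and 10.7 CPM in MGE interneuron-like cells. Erythroid cell-like cells had 5.10 and 2.79 CPM, from 3 UMIs each, so the classes below the MGE class cannot be told from free RNA. Since these are low estimates, the MGE class may lie closer to free RNA than they show. In the unnamed cells 5.55% ± 0.903 (SD, n = 2) had a UMI after thinning and 20.6% and 17.2% before, against 0.559% and 0.893% of erythroid cell-like cells both ways.

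Within classes the genes split clusters further. Of the MGE interneuron-like clusters, the one with *Npy* among its leading genes had *Prox1* at 68.3 and 50.9 CPM, *Sp9* at 363 and 305 CPM and *Htr3a* at 22.8 and 20.6 CPM. In the other, *Prox1* was at 0 and 3.53 CPM, *Sp9* at 109 and 124 CPM and *Htr3a* at 0 and 0.589 CPM. *Npas1* and *Npas3* were opposite, with 8.53 and 6.86 CPM against 79.1 and 70.6 CPM, and 625 and 623 CPM against 1718 and 1805 CPM. The MGE values of *Htr3a* and *Prox1* thus came almost wholly from 1 cluster. Of the striatal clusters, the one with *Drd2* among its leading genes held *Sp9* at 408 and 319.5 CPM, against 15.9 and 20.4 CPM and 8.53 and 9.61 CPM in those led by *Ebf1*. Of the latter pair, the one that also had *Cntn5* and *Rarb* among its leading genes had the most *Adarb2*, at 839 and 770 CPM.

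The first question put to a test was whether the genes separate GABAergic from other cells. All 9 genes passed the filter on low counts, but *Htr3a* did so only through the Gad cells, where it is high, so its calls against excitatory, RGC-like and IPC-like cells are left out of the counts. Against excitatory neuron-like cells, 7 of the other 8 genes were called higher in Gad cells and 1 lower (edgeR's quasi-likelihood test, Benjamini-Hochberg adjusted p under 0.05), where 22.5% of 15820 genes tested were called higher and 23.3% lower. *Prox1* had 65.6 and 54.7 CPM in Gad cells and 1.27 and 1.08 CPM in the excitatory class, which gave 5.58 ± 0.23 on the log2 scale (SE, adjusted p = 8.0e-13 in edgeR). *Sp9* had 215 and 183 CPM against 3.25 and 3.51 CPM, and a log2 fold change of 5.77 ± 0.13 (SE, adjusted p = 1.4e-16 in edgeR). *Adarb2*, *Sp8*, *Npas1* and *Npas3* had log2 fold changes of 5.05, 4.91, 3.97 and 3.83, and *Nr2f2* 2.39. That of *Npas1* was 4.66 in replicate 1 alone and 3.59 in replicate 2 alone. The groups overlapped for none of these genes. *Htr3a* had 11.6 and 10.9 CPM in Gad cells and 0.0792 and 0.396 CPM in excitatory neuron-like cells. The latter rest on 1 and 7 UMIs, so no fold is given. *Nr2f1* alone was called lower, with 116 and 102 CPM against 149 and 153 CPM and a log2 fold change of -0.56 ± 0.061 (SE, adjusted p = 5.8e-07 in edgeR).

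**Figure D2:**
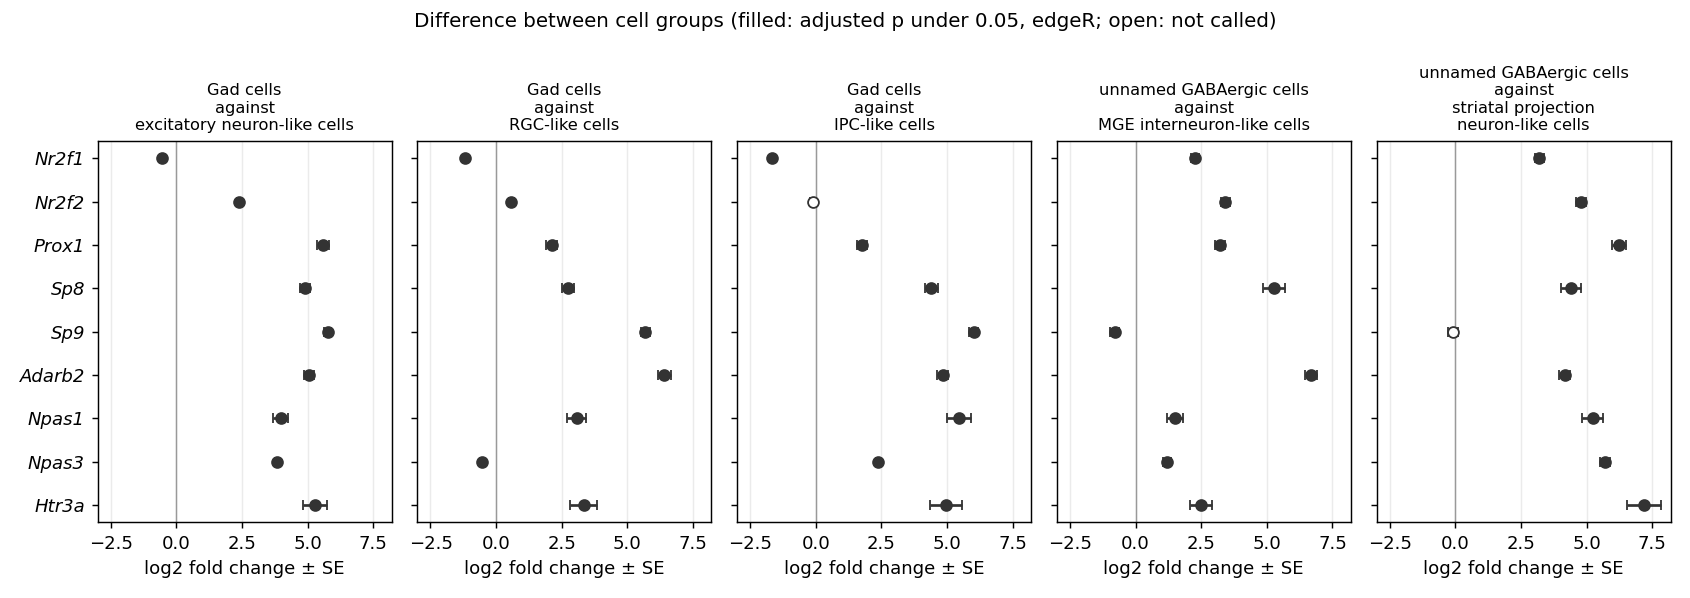
Log2 fold change ± SE (edgeR) of the 9 genes in 5 comparisons between groups of cells (2 libraries each), a point to the right of 0 being higher in the group named first. Filled points passed an adjusted p of 0.05, and those of *Htr3a* in the comparisons of Gad cells rest on 0 to 7 UMIs per library in the other group. *Nr2f1* lies left of 0 in the 3 comparisons of Gad cells and *Sp9* at or left of 0 in both comparisons of unnamed GABAergic cells.

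Against RGC-like cells, the progenitors of the cortex, 6 of the 8 genes were called higher in Gad cells and 2 lower, where 29.7% of genes tested were called higher and 30.2% lower. *Adarb2* had 1510 and 1311 CPM in Gad cells and 5.36 and 26.4 CPM in the radial glia, which gave 6.42 ± 0.24 on the log2 scale (SE, adjusted p = 1.1e-13 in edgeR). The radial glial values rest on 14 and 90 UMIs, and the log2 ratio was 8.09 in replicate 1 alone and 5.62 in replicate 2 alone. The genes called lower were *Nr2f1*, at a log2 fold change of -1.17 ± 0.068 (SE), and *Npas3*, with 677 and 659 CPM against 1008 and 1014 CPM and a log2 fold change of -0.54 ± 0.079 (SE, adjusted p = 1.3e-05 in edgeR). *Npas3* was thus lower in Gad cells than in RGC-like cells and higher than in excitatory neuron-like cells, which had 47.7 and 41.3 CPM. *Nr2f2* was called higher, with 80.5 and 68.1 CPM against 60.8 and 44.0 CPM, a log2 fold change of 0.58 ± 0.097 (SE, adjusted p = 4.9e-05 in edgeR), though the groups' ranges lay close together. *Prox1* had 11.9 and 16.2 CPM in RGC-like cells.

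Against IPC-like cells, the basal progenitors that express *Eomes*, 6 of the 8 genes were called higher and 1 lower, where 26.0% of genes tested were called higher and 25.5% lower. *Nr2f1* was again lower, with a log2 fold change of -1.66 ± 0.063 (SE, adjusted p = 2.5e-13 in edgeR). *Nr2f2* had 80.5 and 68.1 CPM in Gad cells and 89.6 and 70.2 CPM in IPC-like cells, which overlapped, and was not called at a log2 fold change of -0.13 ± 0.080 (SE, adjusted p = 0.198 in edgeR). Its direction turned under 2 alternatives, to a log2 fold change of 0.28 at a lower clustering resolution and of 0.43 with at least 3000 UMIs per cell (adjusted p = 0.0214 and 0.00293 in edgeR). With all cells of the GABAergic clusters in place of Gad cells it was called lower, at -0.21 (adjusted p = 0.029 in edgeR). *Npas1* rested on 1 and 3 UMIs in IPC-like cells and *Htr3a* on 0 and 3.

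In the *Tfap2d* excitatory cells, given with no test, both COUP-TF genes were above Gad cells in both libraries, by log2 ratios of -1.92 and -1.99 for *Nr2f1* and of -2.24 and -2.26 for *Nr2f2* (Gad over *Tfap2d* cells). The other 7 genes had log2 ratios above 0 in both libraries, lowest for *Npas3* at 1.02 and 0.87. *Adarb2* had 164 and 129 CPM in these cells.

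The second question was where the genes differ inside the GABAergic cells. The clusters did not use the 9 genes, but they were drawn on the same cells from genes that vary with them, so these p-values do not measure whether the classes exist. Against MGE interneuron-like cells, 8 genes were called higher in the unnamed GABAergic cells and 1 lower, where 3.36% of 15284 genes tested were called higher and 3.93% lower. *Adarb2* had 9426 and 6760 CPM against 75.1 and 77.2 CPM, a log2 fold change of 6.68 ± 0.23 (SE, adjusted p = 9.7e-24 in edgeR). *Sp8* followed at 5.27 ± 0.43, from 136 and 65.6 CPM against 0.434 and 3.77 CPM. The latter rest on 1 and 13 UMIs, and the log2 ratio of *Sp8* was 7.71 in replicate 1 alone and 4.07 in replicate 2 alone. Then came *Nr2f2* at 3.41 ± 0.17, *Prox1* at 3.22 ± 0.19, *Htr3a* at 2.49 ± 0.43 and *Nr2f1* at 2.27 ± 0.16 (log2 ± SE). *Npas1*, at 1.52 ± 0.30 (SE, adjusted p = 4.2e-04 in edgeR), and *Npas3*, at 1.19 ± 0.15 (SE, adjusted p = 1.1e-07), had the smallest of these differences. *Sp9* was called lower, with 108 and 157 CPM against 264 and 216 CPM and a log2 fold change of -0.80 ± 0.17 (SE, adjusted p = 0.0012 in edgeR). DESeq2 called 7 genes and lost *Npas1* (adjusted p = 0.249) and *Sp9* (adjusted p = 0.158). When the mixed *Reln* cluster was added to the unnamed cells, a choice made after seeing the data, *Npas1* and *Npas3* lost their calls, with log2 fold changes of 0.30 and 0.05.

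Against striatal projection neuron-like cells, 8 genes were called higher and none lower, where 6.83% of genes tested were called higher and 7.5% lower. *Prox1* had 342 and 296 CPM against 3.81 and 4.31 CPM, a log2 fold change of 6.23 ± 0.26 (SE, adjusted p = 1.9e-22 in edgeR). *Npas3* had 2783 and 2443 CPM against 54.0 and 46.7 CPM (log2 fold change 5.70 ± 0.20 SE), and *Nr2f2* 494 and 406 CPM against 15.6 and 16.1 CPM (4.79 ± 0.19 SE). The range of the unnamed cells lay above the striatal range for all 8. *Sp9* was not called, at -0.08 ± 0.18 (SE, adjusted p = 0.85 in edgeR), and its ranges overlapped. With the mixed *Reln* cluster added it was called lower, at -0.68 (adjusted p = 0.00162 in edgeR). Its direction turned, with no call, without doublet removal, at a lower clustering resolution and with at least 3000 UMIs per cell. Against olfactory-type interneuron-like cells, a comparison added after the values were seen and given with no test, the log2 ratios were above 0 in both libraries for 7 genes, lowest for *Adarb2* at 1.52 and 1.16. *Htr3a* rested on 1 and 7 UMIs in the olfactory-type class. *Sp9* was below 0 in both, at -1.09 and -0.37, and *Sp8* differed in sign, at 0.19 and -0.74.

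Co-detection asked whether the genes occur in the same cells. With each Gad cell thinned to 1500 UMIs, the number of cells with both genes of a pair was divided by the number that independent detection would give. Of the 36 pairs, 27 had at least 5 expected cells in each library. In 19 of them the ratio was above 1 in both libraries and in 6 below 1 in both, and the median ratio was 1.57 in replicate 1 and 1.46 in replicate 2. *Nr2f2* with *Prox1* had the highest ratios, with 33 and 48 cells observed against 9.24 and 14.0 expected. *Nr2f1* with *Nr2f2* had 62 and 80 cells against 19.3 and 27.8, and *Npas1* with *Npas3* 56 and 62 against 23.0 and 25.2. *Sp9* with *Npas1* had the lowest, with 6 cells in each library against 14.1 and 15.9 expected. All 5 pairs lowest in this order included *Sp9*, but this depended on the thinning. Without it 35 pairs had at least 5 expected cells, 30 were above 1 in both libraries and 4 below, and the median ratio was 1.49 and 1.55. *Sp9* with *Npas1* stayed below 1, at 0.603 and 0.661, while *Sp9* with *Npas3* was at 1.07 and 1.06 and *Nr2f1* with *Sp9* at 1.02 in both libraries.

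**Figure D3:**
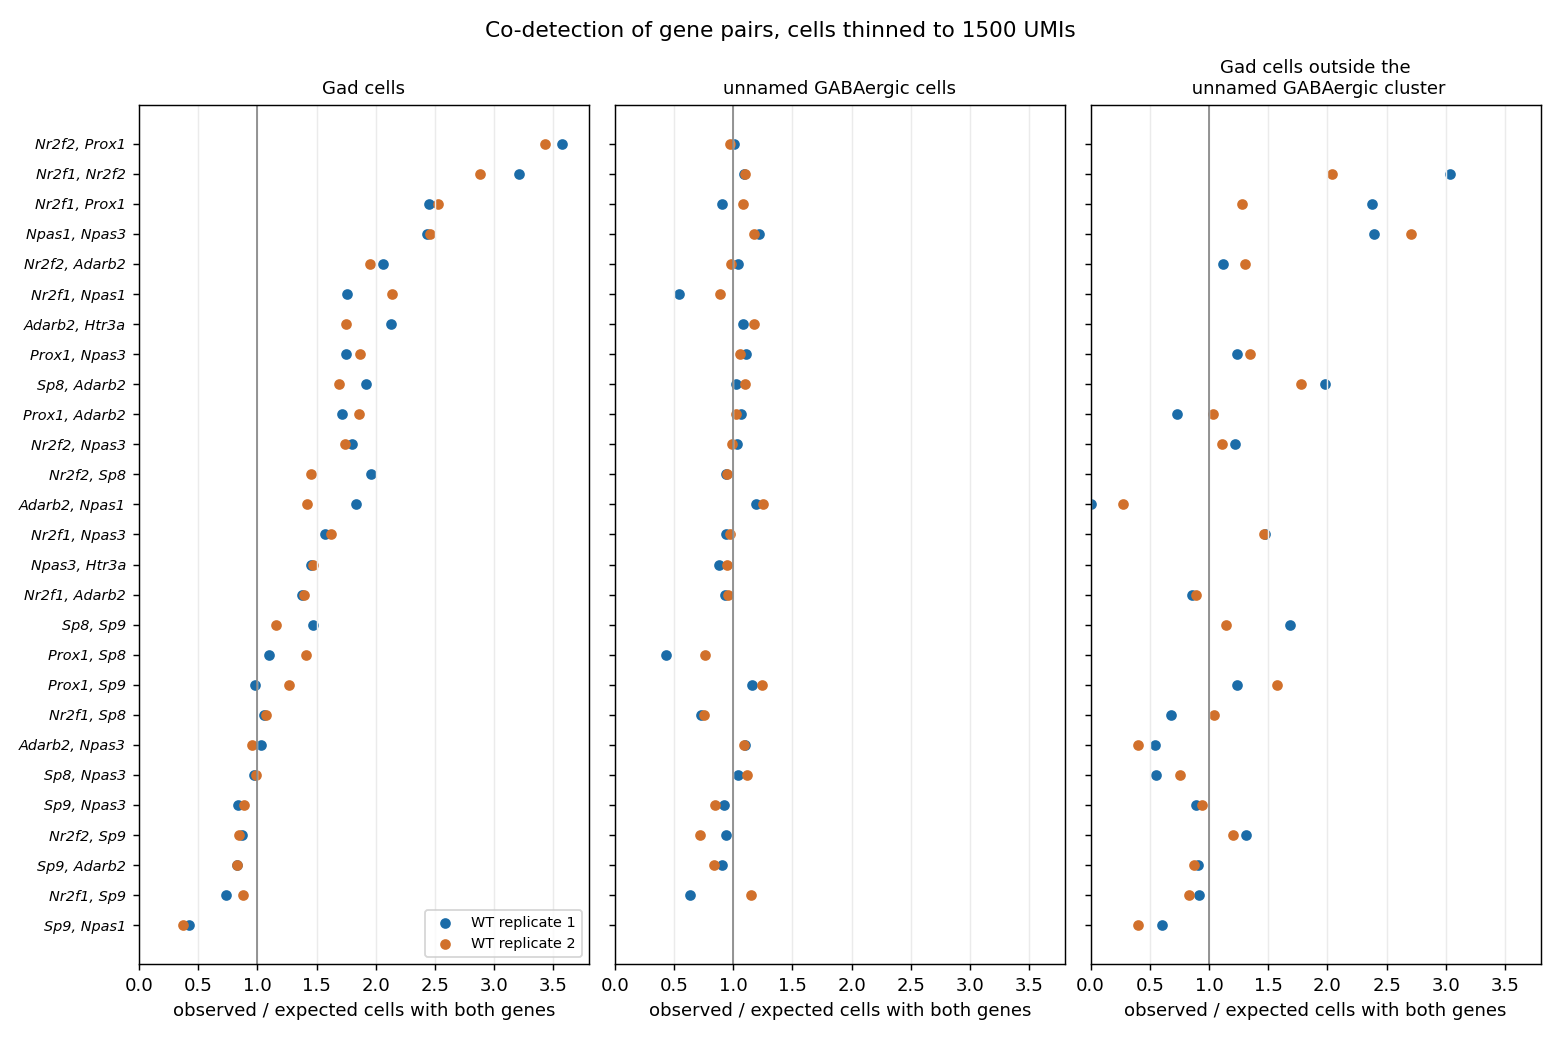
Observed over expected number of cells in which both genes of a pair had a UMI, in Gad cells thinned to 1500 UMIs, in the unnamed GABAergic cells among them and in the Gad cells outside that cluster, with a point for each library and pairs with under 5 expected cells in a panel left blank. The median ratio over the pairs is 1.57 and 1.46 in the 2 libraries in Gad cells and 1.01 in both libraries inside the cluster.

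Inside the unnamed GABAergic cluster the ratios lay near 1. The median over 28 pairs was 1.01 in both libraries, with 12 pairs above 1 in both and 11 below. *Nr2f2* with *Prox1* had 26 and 42 cells against 25.9 and 43.0 expected. *Prox1* with *Npas1* was highest, with 16 and 12 cells against 11.5 and 9.11, and *Prox1* with *Sp8* lowest, with 3 and 6 cells against 6.88 and 7.86. These last counts are small, and without thinning both pairs were near 1, at 1.01 and 1.03 for *Prox1* with *Npas1* and at 1.03 and 1.09 for *Prox1* with *Sp8*. Outside the cluster, the remaining Gad cells without thinning had a median ratio of 1.32 and 1.24 over 30 pairs. After thinning it was 1.12 and 1.11 over 21 pairs. There *Adarb2* and *Npas3* were found together in 65 and 70 cells against 119 and 174 expected, whereas inside the cluster they were found together in 132 and 204 cells against 120.0 and 187. *Nr2f1* with *Nr2f2* (17 and 16 cells against 5.60 and 7.86) and *Npas1* with *Npas3* (21 and 35 against 8.79 and 12.9) remained above 1 outside it. Outside the GABAergic classes fewer pairs reached 5 expected cells after thinning. The median ratio was 1.34 and 1.35 over 4 pairs in excitatory neuron-like cells and 1.27 and 1.06 over 3 in RGC-like cells. In *Tfap2d* excitatory cells it was 0.942 and 0.999 over 6 pairs. In these groups, in the same order, *Nr2f1* with *Nr2f2* was at 1.62 and 2.28, 2.13 and 1.81, and 1.46 and 1.48. Ratios above 1 were thus not particular to Gad cells.

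Counted per cell, the unnamed GABAergic cells had a UMI of 3.53 and 3.19 of the 9 genes on average after thinning. Olfactory-type interneuron-like cells had 1.45 and 1.35, MGE interneuron-like cells 1.18 and 1.16, *Tfap2d* excitatory cells 1.15 and 1.12 and RGC-like cells 1.01 and 1.08. At least 3 genes were found in 78.9% and 71.5% of the unnamed GABAergic cells, in 13.4% and 9.51% of the olfactory-type class and in at most 11.1% of any other class of the order above. Without thinning the shares were 92.8% and 91.4% in the unnamed cells, 49.5% and 33.5% in GABAergic progenitor-like cells, 36.8% and 31.0% in the olfactory-type class, 30.02% and 29.0% in *Tfap2d* excitatory cells and 1.68% and 0.893% in erythroid cell-like cells. Of the Gad cells with at least 3 genes after thinning, 133 of 230 (57.8%) in replicate 1 and 210 of 330 (63.6%) in replicate 2 lay in the unnamed cluster, which held 10.1% and 10.7% of the Gad cells. Without thinning it was 160 of 510 (31.4%) and 273 of 761 (35.9%).

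**Figure D4:**
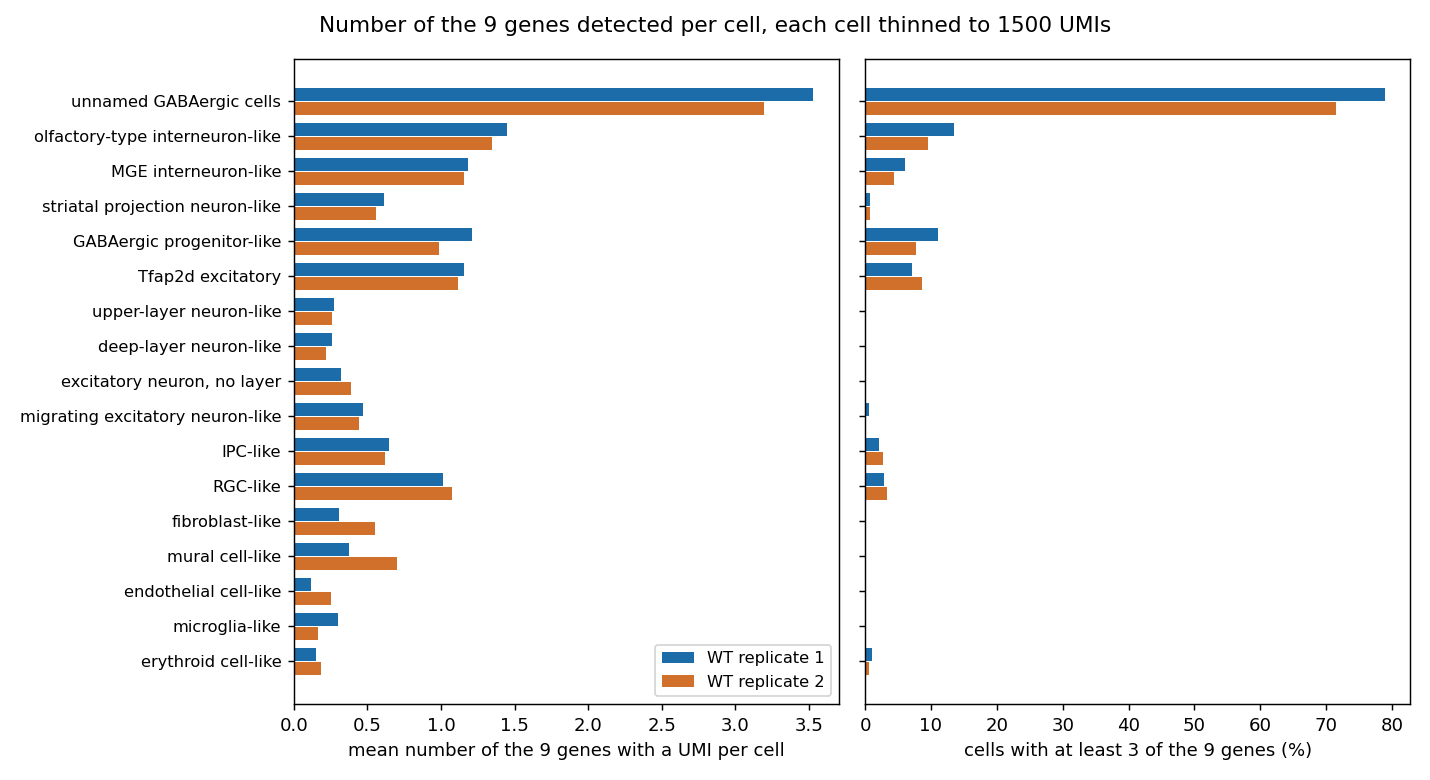
Mean number of the 9 genes with at least 1 UMI per cell (left) and percentage of cells with at least 3 of them (right), each cell thinned to 1500 UMIs, in 17 cell classes and with a bar for each of the 2 WT libraries. The unnamed GABAergic cells reach 78.9% and 71.5% of cells with at least 3 genes and the olfactory-type class 13.4% and 9.51%.

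The other genes of the lineage were read from lists. Of 9 general GABAergic genes, all 9 were called higher in Gad cells than in the excitatory class, at a median log2 fold change of 5.60 beside -0.01 over all genes. Here *Gad1* and *Gad2* had chosen the cells. *Dlx5* and *Dlx2*, homeodomain genes of ventral progenitors, had log2 fold changes of 5.66 and 5.61. In the same comparison 7 of 9 MGE regulators were called higher and 2 lower, led by *Maf* (5.31) and *Lhx6* (4.96), and the genes called lower were *Mef2c* (-1.39) and *Zeb2* (-0.22). The MGE list names the MGE class, so that all 9 were called lower in the unnamed GABAergic cells than in that class is no independent result. Against the striatal class 6 of the 9 were called higher in the unnamed GABAergic cells and 3 were not called, led by *Sox6* at 339 and 301 CPM against 9.89 and 6.71 CPM (log2 fold change 5.30 ± 0.26 SE). *Sox6*, *Maf* and *Zeb2* were thus present in the unnamed cells, while *Nkx2-1*, which specifies the MGE, was at 0 and 2.37 CPM in them against 63.8 and 38.0 CPM in MGE interneuron-like cells.

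The genes that mark CGE subtypes later in life gave different counts in the comparisons. With Gad cells 10 of the 15 could be tested. Set against the excitatory class, 4 had a call for higher in Gad cells and 6 for lower. Their median log2 fold change was -0.97, beside -0.01 over all genes. Against RGC-like cells 6 were higher, 2 lower and 2 not called (median 2.57 beside 0.05). Against IPC-like cells it was 6 higher and 4 lower (median 1.49 beside 0.03). The shares of all genes called stand with those comparisons above. Of 15 on the list, 11 could be tested between the unnamed GABAergic and MGE interneuron-like cells, and 3 were called higher, 2 lower and 6 not, beside 3.36% and 3.93% of all genes tested, with a median log2 fold change of -0.07 beside -0.04 over all genes. Against the striatal class 5 were called higher, none lower and 6 not, beside 6.83% and 7.5% of all genes tested, with a median of 1.01 beside -0.04. Against MGE interneuron-like cells, the genes called higher were *Synpr*, *Cxcl14* and *Cnr1*. *Synpr*, a synaptic vesicle protein, had 154 and 86.2 CPM against 5.21 and 3.19 CPM (log2 fold change 4.80 ± 0.31 SE). *Cxcl14*, a chemokine, had 14.6 and 12.6 CPM against 1.30 and 0.580 CPM from 3 and 2 UMIs. The cannabinoid receptor gene *Cnr1* had 329 and 304 CPM against 20.8 and 26.1 CPM (3.70 ± 0.17). *Calb2*, which encodes calretinin, was called lower than in the MGE class, with 2.66 and 3.16 CPM against 24.3 and 16.5 CPM. *Reln* was not called against the MGE class, with 156 and 120.1 CPM against 161 and 158 CPM. It was among the genes called higher against the striatal class. Most of these genes served as markers in naming, and the unnamed GABAergic cells took no name from them.

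Among 13 other serotonin receptor genes, 6 could be tested. In Gad cells 3 were called higher and 1 lower than in excitatory neuron-like cells, 5 higher and none lower than in RGC-like cells, and all 6 higher than in IPC-like cells, where none exceeded 3.82 CPM in a library. The shares over all genes are those given with each comparison above. In the unnamed GABAergic cells none was called higher, 1 was called lower than in MGE interneuron-like cells (3.93% of all genes tested) and 2 lower than in the striatal class (7.5%). *Htr7* had no UMI in the unnamed GABAergic cells of either library. *Htr3b*, which encodes the partner subunit of the channel, had 0 CPM in Gad cells and in excitatory neuron-like cells of both libraries. Of 20 paralogs of the 9 genes, 15 could be tested against MGE interneuron-like cells, with 1 called higher, 1 lower and 13 not called. *Nr2e1*, an orphan nuclear receptor gene, had 29.3 and 22.1 CPM against 10.4 and 7.25 CPM (log2 fold change 1.52 ± 0.29 SE), and *Arnt2*, whose product pairs with PAS factors, 194 and 159 CPM against 315 and 329.5 CPM (-0.90 ± 0.14 SE). Their median log2 fold change was -0.03. *Nr2e1* was also called higher in Gad cells than in excitatory neuron-like cells, at 3.29 ± 0.20 (SE), where 6 of 15 paralogs were called higher, 3 lower and 6 not.

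Finally, the genes whose pattern over the 17 classes was most like each of the 9 were listed by Pearson's r of log2(CPM + 1), taking the lower of the libraries, among 13222 genes. These points share libraries and depth and are a description. *Nr2f1* was most like *A830082K12Rik* (r = 0.88) and *Nr2f2* most like *B130024G19Rik* (r = 0.94). Each lies beside its partner, at chr13:78198017-78236564 and chr7:70365383-70411146 on GRCm38.p6, and shares 857 and 1364 bases of its span with it. *Prox1os*, which shares 532 bases with *Prox1*, had 98.5 and 115 CPM in the unnamed GABAergic cells and 7.38 and 8.70 CPM in MGE interneuron-like cells. The counting of strand is not given in the sources used here. Whether reads of overlapping genes were told apart where they overlap is thus not known here. *Sp9* was most like *Dlx6*, *Dlx5* and *Dlx6os1* (r of 0.93, 0.92 and 0.92), *Prox1* like *Cdca7*, *Dlx1* and *Dlx1as* (0.78, 0.77 and 0.76), and *Sp8* like *Abcb5* (0.91), which lies on the same chromosome at chr12:118867486-118966434. *Npas1* and *Htr3a* were each among the 3 genes most like the other, at r = 0.83.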

How the data were processed

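Single-cell RNA sequencing (10x Genomics 3' kit) was deposited for 2 WT libraries of E16.5 mouse cerebral cortex, both in 1 group. The authors deposited UMI counts for each gene in each barcode, taken after Cell Ranger's barcode filter, and not normalized. The labels name Cell Ranger 7.0.0 and build mm10, and the file headers name version 7.1.0. The 9049 and 13556 barcodes held 46398156 and 64324236 UMIs.

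Cells with 1500 to 60000 UMIs and under 10% mitochondrial UMIs were kept, and the top Scrublet scores (scanpy 1.11.5) were removed at a rate set by the number of barcodes, which took 432 and 1111 cells. Clusters came from 2000 variable genes without the 9 genes and the 75 genes of the lists in all, 30 principal components, 20 neighbours and Leiden resolution 1 (leidenalg 0.10.2). Names followed 19 marker lists, at least 3 markers and a score of 0.5. That 1 of the 10 leading genes had to be a marker of the name, the handling of excitatory conflicts and mixed clusters, and the *Tfap2d* cells were decided after the clusters were seen. The genes and lists were chosen with earlier results of these data known. If no cluster took the CGE name, GABAergic clusters without another name were to stand in.

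UMIs were summed per library and class and tested with edgeR 4.0.16 (R 4.3.3): TMM, at least 10 counts in at least 2 sums, quasi-likelihood test, library as a block, since classes of 1 library are the same sample, and Benjamini-Hochberg adjustment over all genes tested. The SE is the log2 fold change over the square root of F. The scripts were tested on simulated data. Alternatives included DESeq2 1.42.0, filters, doublets, resolution, depth and the definition of Gad cells. From each list, up to 4 called genes with the largest change, at least 10 CPM and the same direction in both libraries could be named, and the 3 most alike genes were ranked for each of the 9. *Vip*, *Reln*, *Zeb2*, *Mef2c*, *Nkx2-1*, *Htr7*, *Htr3b* and *Prox1os* were named after their values were seen. Classes had at least 20 cells per library. Floors of 3 counts and ratios cover counting error only.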

Additional observations from a re-analysis of the deposited data

Results flagged for a closer look

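The 9 genes were also read in the 3083 barcodes of replicate 1 and 3309 of replicate 2 that failed the filters on UMIs or mitochondrial share and enter no comparison. All 9 were above the level that 3 counts allow there (0.421 and 0.599 CPM), which is why they are listed. The mean CPM of the libraries was 171 for *Nr2f1*, 76.5 for *Nr2f2*, 18.5 for *Prox1*, 10.0 for *Sp8*, 41.2 for *Sp9*, 240.0 for *Adarb2*, 11.9 for *Npas1*, 304 for *Npas3* and 2.34 for *Htr3a*. *Adarb2* differed most between the libraries among the genes above 100 CPM, with 301 and 178 CPM. A group of 2 libraries is too small to test for a library that stands apart.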

How the results depend on the processing

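The number of genes called stayed within 1.5 times its value under every alternative run. Leaving out *Htr3a*, which passed the filter only through the Gad cells, it was 8 of 8 in all settings against excitatory neuron-like and RGC-like cells and 7 or 8 against IPC-like cells. Over all 9 genes it was 7 to 9 against MGE interneuron-like cells and 8 or 9 against striatal projection neuron-like cells. The fit with no replicate block gave the same counts (9, 9, 8, 9 and 8 with *Htr3a*) and changed no call among the genes; classes of 1 library are paired because they come from the same sample. Of 432 refitted or single-library values of single genes, 400 kept direction and call or moved by less than the spread between libraries. The direction turned for *Nr2f2* against IPC-like cells, at 0.28 with Leiden resolution 0.6 and 0.43 with at least 3000 UMIs (adjusted p = 0.0214 and 0.00293, edgeR), and for *Sp9* against the striatal class, at 0.067 without doublet removal, 0.035 at resolution 0.6 and 0.22 with at least 3000 UMIs, none of which was called. *Nr2f2* was called lower with all cells of the GABAergic clusters (-0.21) and *Sp9* with the mixed cluster added (-0.68). The cause was not tested. *Npas1* against the MGE class was not called with DESeq2, with at least 3000 UMIs (adjusted p = 0.0855) or with the mixed cluster added. With at least 3000 UMIs, a second cluster of 310 cells led by *Gnrh1* also counted as unnamed GABAergic, and without doublet removal one of 442 cells led by histone genes did, so these settings changed the class as well. Over all genes, DESeq2 called 4177 in place of 7235 against excitatory neuron-like cells, and the mixed cluster raised the calls against the MGE class from 1114 to 2402. The median co-detection ratio of 1.52 was 1.62 in cells with at least 2 *Gad1* or *Gad2* UMIs, and ranged from 1.46 to 1.57 when a library was left out. The number of genes highest in the unnamed GABAergic cells ranged from 6 to 8 over single libraries. Leaving out a library leaves 1 sum a class and no test, so counts of calls were not refitted. The planned comparison with hippocampal neuron-like cells was not run, since no cluster took that name. Depth limits *Htr3a* most, with 257 UMIs in all.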
